A study of Mus musculus with 32 samples.

Results

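Multipotent progenitors (MPP) were compared with haematopoietic stem cells (HSC) in mice that carried both the Jak2V617F variant and a deletion of Jarid2, labelled Mx1-Jak2V617F - Jarid2KO and called the double mutant here. The comparison took the 2 libraries labelled double mutant MPP and the 2 labelled double mutant HSC, chosen by their titles. These are 4 of the 24 RNA-seq libraries of the series, which holds 32 samples in all. Per the labels, the mice were C57BL/6, 10 weeks old and 2 months past injection of pIpC, an interferon inducer that switches on Mx1-CRE. The recombinase is under the interferon-responsive Mx1 promoter, which is not restricted to blood cells. HSC were sorted as cells without lineage markers that were CD150+, CD48-, cKit+ and Sca1+, and MPP as the same without CD150, so CD150 alone separates the gates and CD48 is meant to be low in both. Each library was made from a pool of male and female mice. The comparison groups were the Mx1 control and Mx1-Jak2V617F mice of the same age and injection, with 2 HSC and 2 MPP libraries each, and wild-type mice with Vav-CRE, 8 weeks old and not labelled as injected, with 3 HSC and 3 MPP libraries. The protocol text and the sample labels differ on the age of the mice and on the number of replicates, and the labels were followed. The protocol text also gives 2 descriptions of the pools, so their make-up is uncertain.

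HSC renew themselves and give rise to MPP, which feed the blood lineages. Part of the HSC pool carries transcripts of megakaryocytes, the cells that make platelets, while red cell production runs through a programme led by the factors GATA1 and KLF1 with haem and globin synthesis as its output. JAK2 is the kinase that carries erythropoietin and thrombopoietin signals, its V617F form is always active and drives myeloproliferative disease, and JARID2 binds and guides Polycomb repressive complex 2 (PRC2), which silences genes through a histone mark. The series title speaks of Jarid2 and self-renewal of progenitors, and the comparison asks what separates the 2 cell populations when both lesions are present.

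The 4 libraries held 7852483 to 16929392 counts. Replicate 1 of each cell type stood apart from replicate 2 in heart muscle RNA. A list of 20 heart muscle genes took 8.33% of counts in HSC replicate 1 and 9.20% in MPP replicate 1, against 0.577% in HSC replicate 2 and 1.22% in MPP replicate 2. The other 8 libraries of the Mx1 cohort ranged from 0.662% to 10.1% and the Vav libraries from 0.00638% to 0.0147%. CPM values were therefore compared within a replicate number. The fit carried a term for libraries with more than 4% heart counts, which in the double mutant is the replicate number. That term and the spread were shared by all 12 Mx1 libraries, so the tests are not paired within the double mutant alone. The labels do not say that HSC and MPP of the same number came from the same pool. Within pairs, 18 of 19 tested heart genes were higher in MPP in both pairs, against 23.1% of all genes (median log2 difference 0.66, 0 called; Myl7, the untested member, stood at 0 to 0.127 CPM), as were 12 of 15 stroma and endothelium genes (median 0.55, 0 called). The part of these transcripts in the differences below was not tested.

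The double mutant libraries carried the RNA of their sort markers. Slamf1, which encodes CD150, stood at 30.8 and 124 CPM, counts scaled by the depth of the library, in HSC replicates 1 and 2 and at 8.15 and 6.75 in MPP. Both MPP libraries lay below both HSC libraries, but the fitted log2 difference of -2.88 (SE 1.27) did not pass (adjusted p = 0.998, edgeR quasi-likelihood test with Benjamini-Hochberg adjustment). Cd48 stood at 13.9 and 20.2 CPM in HSC and at 38.8 and 55.5 in MPP (log2 1.53, SE 0.36, adjusted p = 0.0625, edgeR), and Flt3, a receptor of lymphoid-primed progenitors, at 21.9 and 47.1 in HSC and 48.7 and 181 in MPP (1.58, SE 0.40, adjusted p = 0.137). Procr, a stem cell surface receptor, was at 25.8 and 74.4 CPM in HSC and 24.8 and 69.8 in MPP. Kit stood at 370 and 1121 CPM in HSC and 189 and 608 in MPP, Ly6a (Sca1) at 78.2 and 150 in HSC and 122 and 190 in MPP, and Cd34 at 190 and 307 in HSC and 190 and 355 in MPP. None of these passed in the fit reported here, but the sort marker calls turn on the fit. Over 16 alternative fits Slamf1 passed in 7, among them the fit with no filter on low counts (adjusted p = 0.00146, edgeR; range 1.03e-05 to 1), Flt3 in 7, Cd48 in 6, Ly6a in 1 and Kit and Cd34 in 0. The log2 difference of Ly6a ran from -1.12 to 2.18 over these fits and that of Cd34 from -0.06 to 0.34, so neither kept a direction. The targeted gene Jarid2 was at 68.3 and 169 CPM in HSC and 52.6 and 93.2 in MPP, which does not check the deletion because counts sum all exons, and Jak2 was at 43.8 and 48.3 in HSC and 58.8 and 48.3 in MPP.

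The Mx1 control and Jak2V617F libraries did not carry these markers as labelled. In their 4 libraries labelled HSC, Slamf1 ranged from 0.196 to 12.7 CPM, Procr from 0.0653 to 8.89, Cd48 from 93.7 to 133 and Mpo, a granule enzyme of myeloid progenitors, from 6113 to 17224. Double mutant HSC had Mpo at 939 and 366 CPM. Vav control HSC had Slamf1 at 57.4 to 66.1, Procr at 90.8 to 119, Cd48 at 6.46 to 14.4 and Mpo at 216 to 522. The 4 Mx1 control and Jak2V617F libraries labelled MPP had Procr at 2.85 to 3.44 CPM and Mpo at 3391 to 16446. Vav control MPP had Procr at 111 to 139 and Mpo at 879 to 1438. Double mutant MPP had Procr at 24.8 and 69.8 CPM, below that range in both replicates. Their Mpo, at 1053 and 2272, lay within the Vav control range in replicate 1 and above it in replicate 2. Elane, at 1003 and 2288 against 648 to 1026 in Vav control MPP, did the same. Their Gata1, at 55.9 and 411, lay above the 28.3 to 33.0 of Vav control MPP in both. Every comparison below with the Mx1 control or Jak2V617F groups rests on libraries that go against their HSC label. The libraries of these groups also enter the heart term and the spread of the double mutant fit.

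**Figure D1:**
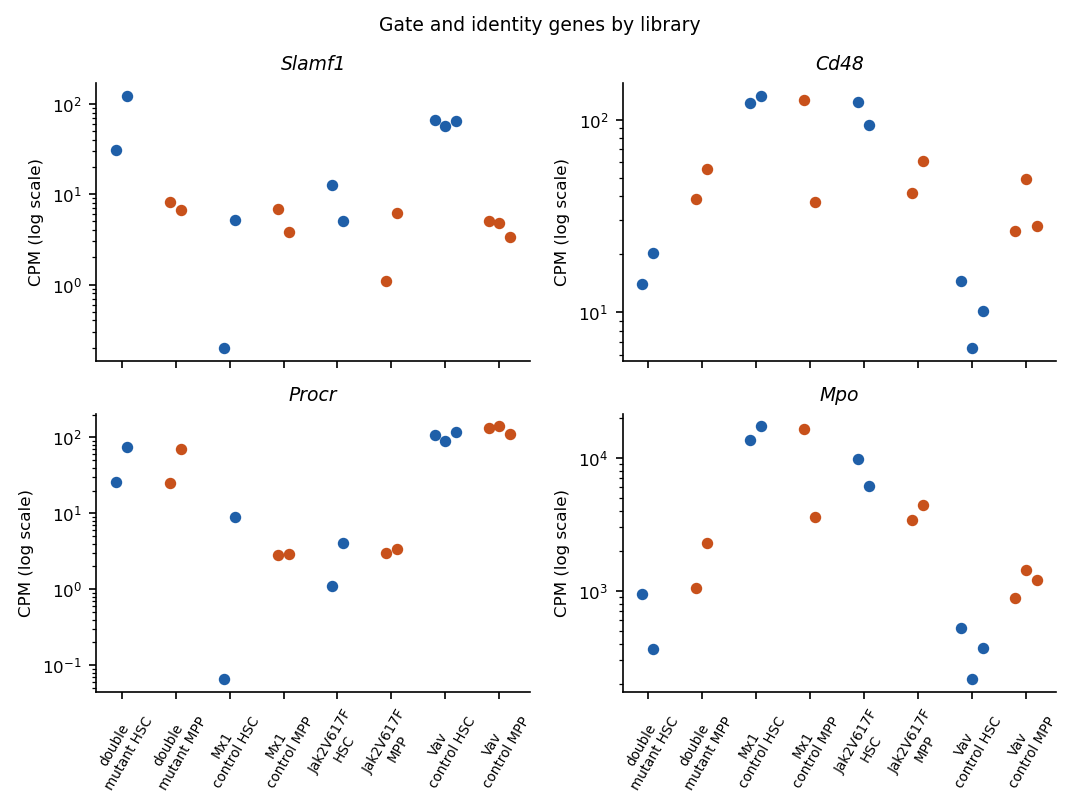
CPM (log scale) of Slamf1, Cd48, Procr and Mpo, each point 1 library, blue for HSC and orange for MPP. Double mutant HSC have higher Slamf1 and lower Cd48 than the Mx1 control and Jak2V617F libraries labelled HSC, which have Cd48 at 93.7 CPM or more and Slamf1 at 12.7 or less. Procr of double mutant HSC, at 25.8 and 74.4, lies below the 90.8 to 119 of Vav control HSC. Their Mpo, at 939 and 366, is above the Vav control HSC range of 216 to 522 in replicate 1.

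Double mutant MPP held less RNA of platelet and megakaryocyte genes and more RNA of red cell genes than double mutant HSC. The platelet integrin Itga2b, the thrombin receptors F2r and F2rl2, the granule chemokine Pf4, coagulation factor V (F5) and P-selectin (Selp) fell, by 2.27 to 3.44 on the log2 scale. The erythroid master factor Klf1, the erythroid proteins Hemgn, Trim10 and Smim1 and the haem enzymes Alad and Cpox rose, by 1.96 to 3.76. The test covered 19616 genes and called 42 (0.214%), of which 25 (0.127% of genes tested) rose and 17 (0.0867%) fell in MPP. The median log2 difference over all genes was 0.01. All 42 moved the same way in both pairs, against 52.1% of all genes, and in 38 of them the MPP and HSC libraries did not overlap, against 18.5% of all genes. The 42 were called on these same values, so these shares are not a separate check of the calls. The calls depend on the model. Without the heart term 0 genes passed, with a replicate block within genotype over all 12 Mx1 libraries 1 passed and 0 of the 42 did, and with the 4 double mutant libraries alone and a replicate block 91 passed, 35 of them shared. In sorted bulk RNA, fewer cells of a type and less RNA per cell cannot be told apart.

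**Figure D2:**
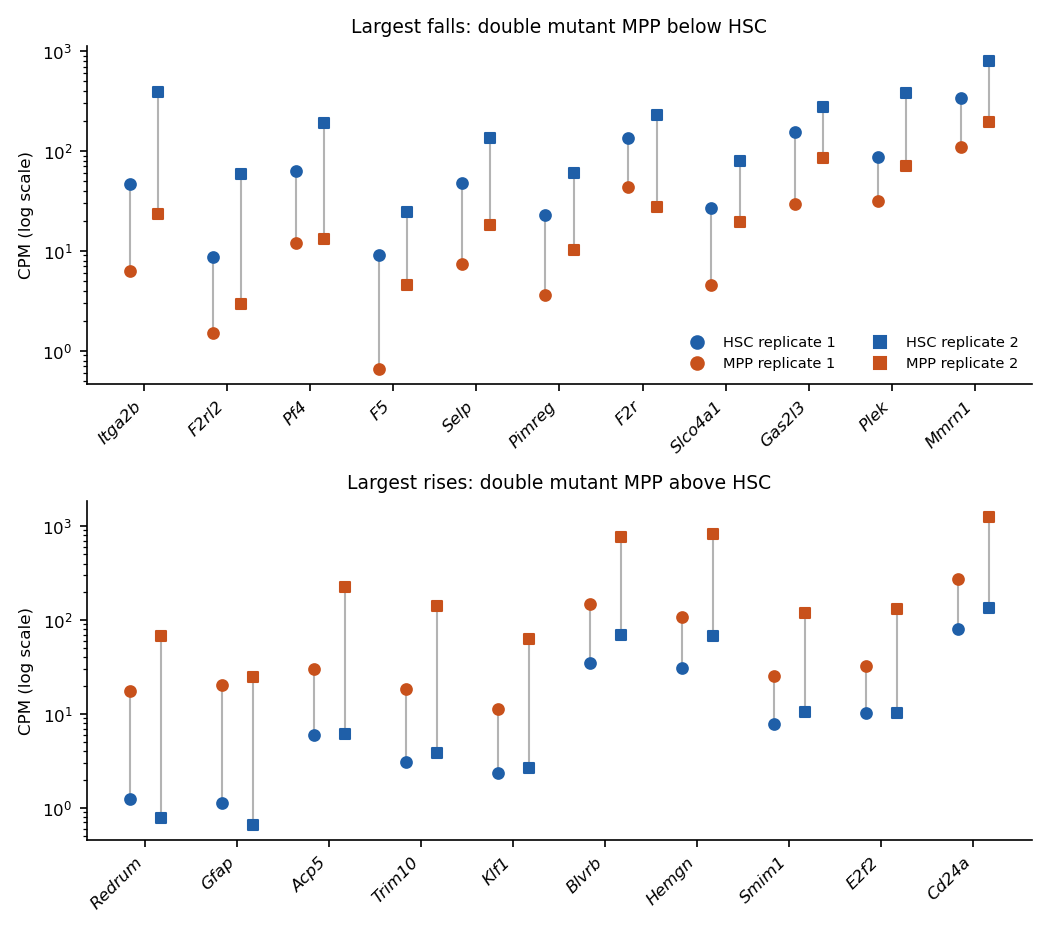
CPM (log scale) of 11 of the 12 largest falls and 10 of the 12 largest rises in double mutant MPP against HSC among genes called, leaving out predicted genes and genes with clone names such as 6030468B19Rik, circles for replicate 1, squares for replicate 2, blue for HSC and orange for MPP, with a line joining each pair. Genes were drawn only if both pairs moved the same way and the libraries of the 2 cell types did not overlap. The rises are larger in replicate 2.

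Among platelet genes, Itga2b (ENSMUSG00000034664, mm10 chromosome 11, 102453297 to 102470122), the alpha chain of the platelet fibrinogen receptor, had 47.1 and 386 CPM in HSC and 6.26 and 23.2 in MPP. Both HSC libraries lay above both MPP libraries, 7.54-fold in the first pair and 16.6-fold in the second, and the difference passed (log2 -3.44, SE 0.53, adjusted p = 0.00664, edgeR). Pf4 (ENSMUSG00000029373, chromosome 5, 90772435 to 90773381), a chemokine of platelet alpha granules, had 63.2 and 190 CPM in HSC and 12.1 and 13.1 in MPP. Its MPP libraries were nearly level, so that the larger fold of the second pair, 14.5 against 5.21, came with the higher HSC value (log2 -3.08, SE 0.47, adjusted p = 0.0025). The reference promoters of these 2 genes, from RefSeq on GRCm38.p6, 250 bases before to 50 after the start RefSeq gives and printed 5′ to 3′ on the gene's strand, are shown because GATA factors act on genes of both lineages described here, and the letters AGATAA are those by which their sites are known. Capitals mark AGATAA, or TTATCT where it lies on the other strand. Pf4 is read on the plus strand at chr5:90772185-90772484 and Itga2b on the minus strand at chr11:102469834-102470133.
Pf4: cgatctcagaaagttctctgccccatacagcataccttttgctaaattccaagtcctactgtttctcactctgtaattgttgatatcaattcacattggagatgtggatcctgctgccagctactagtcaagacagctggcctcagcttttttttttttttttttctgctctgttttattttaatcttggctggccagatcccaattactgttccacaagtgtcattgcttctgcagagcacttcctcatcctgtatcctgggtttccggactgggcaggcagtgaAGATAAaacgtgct
Itga2b: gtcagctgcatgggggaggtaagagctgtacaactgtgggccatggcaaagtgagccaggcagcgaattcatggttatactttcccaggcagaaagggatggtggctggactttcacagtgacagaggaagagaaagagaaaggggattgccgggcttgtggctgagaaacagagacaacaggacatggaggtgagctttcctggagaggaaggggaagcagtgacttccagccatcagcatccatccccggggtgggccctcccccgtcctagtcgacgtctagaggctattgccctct
The RefSeq start of Itga2b lies inside the gene coordinates given above, which come from the deposited tables. AGATAA occurs once in the Pf4 window and in neither direction in the Itga2b window, which says only that these letters are not in these 300 bases.

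The thrombin receptor genes F2r and F2rl2 both fell. F2r is counted on the megakaryocyte and platelet list below, but whether mouse platelets use it was not tested. F2r, the main thrombin receptor of the protease-activated family, had 134 and 232 CPM in HSC and 43.2 and 27.6 in MPP (log2 -2.27, SE 0.36, adjusted p = 0.00122, edgeR). F2rl2, a related receptor, had 8.74 and 58.6 CPM in HSC and 1.52 and 2.93 in MPP (log2 -3.37, SE 0.71, adjusted p = 0.0214). HSC and MPP did not overlap for either. F5, a cofactor of thrombin formation, had 9.10 and 24.4 CPM in HSC and 0.663 and 4.59 in MPP (log2 -2.90, SE 0.53, adjusted p = 0.00447), and Selp, the adhesion receptor that activated platelets expose, had 47.8 and 133 in HSC and 7.39 and 18.1 in MPP (log2 -2.71, SE 0.52, adjusted p = 0.00664). Again no MPP library reached the lower HSC library. Plek, a protein kinase C substrate of platelets, had 86.1 and 377 CPM in HSC and 31.9 and 70.2 in MPP (log2 -1.85, SE 0.31). Mmrn1, a platelet protein that binds factor V and that is also counted in the stem cell list, had 338 and 797 CPM in HSC and 110 and 193 in MPP (log2 -1.76, SE 0.37, adjusted p = 0.0405).

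Over the list of 24 megakaryocyte and platelet genes, all tested, 6 fell (F2r, Plek, Pf4, Selp, Itga2b and Mmrn1), 0 rose and 18 did not pass. Of all genes tested, 0.0867% were called lower. The median log2 difference was -1.78 and 22 of 24 fitted differences were below 0, while 50.9% of all genes were above 0. In 19 the CPM was lower in MPP in both pairs, against 28.9% of all genes, and in 14 both MPP libraries lay below both HSC libraries, against 11.1%. Summed over the list, HSC held 2012 and 5152 CPM and MPP 1122 and 1538, so that HSC stood 1.79-fold above MPP in the first pair and 3.35-fold in the second. Of the collagen and podoplanin receptor genes of mature platelets, Gp6 was rare in every library and Clec1b in MPP. Gp6 stood at 0.473 CPM in HSC replicate 1 and at 0 in the other 3 libraries, where 3 counts would give 0.284 to 0.382 CPM. Clec1b stood at 5.61 and 4.21 in HSC and at 0.0948 and 0.255 in MPP, without overlap. It did not pass, and its MPP values lay below the level of 3 counts. Vwf, the carrier of factor VIII, at 122 and 175 CPM in HSC and 107 and 35.8 in MPP, did not pass (log2 -1.28, SE 0.37, adjusted p = 0.279). Thbs1, at 122 and 13.3 CPM in HSC and 161 and 31.2 in MPP, stood on the other side, with its high values in the 2 libraries rich in heart RNA. Of the 6 calls, 0 were left without the heart term or with the 12-library block and 5 when HSC replicate 2 was left out.

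Klf1 (ENSMUSG00000054191, chromosome 8, 84901928 to 84905295), the zinc finger factor that drives globin and other red cell genes, stood at 2.36 and 2.66 CPM in HSC and at 11.4 and 63.4 in MPP. The HSC libraries were low and close to each other, while the MPP libraries were 4.81-fold and 23.9-fold above their partners (log2 3.31, SE 0.63, adjusted p = 0.00664, edgeR). It was the only member called, of 15 GATA and megakaryocyte-erythroid factors tested, against 0.127% of all genes called higher. Gata1, its upstream partner, had 39.3 and 126 CPM in HSC and 55.9 and 411 in MPP. HSC replicate 2 lay above MPP replicate 1, and the difference did not pass (log2 1.17, SE 0.32, adjusted p = 0.184), though it did in 4 of 16 alternative fits. Gata2, the GATA factor of stem cells, stood at 79.4 and 294 CPM in HSC and 55.3 and 86.2 in MPP (log2 -1.10, SE 0.37, adjusted p = 0.549). Fli1, an ETS factor of megakaryocytes, was at 354 and 712 in HSC and 159 and 247 in MPP (log2 -1.26, SE 0.30, adjusted p = 0.0679). Its libraries did not overlap. Tal1 (log2 0.12), Gfi1b (-0.16), Nfe2 (-0.18), Lmo2 (-0.09) and Myb (-0.10), partners in the same complexes or lineages, had differences within 0.2 of 0 and did not pass.

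Of 25 erythroid genes, 24 were tested. Icam4, the last, was listed at 0 counts in all 4 libraries, below the 0.177 to 0.382 CPM that 3 counts would give. Klf1 and Blvrb passed, against 0.127% of all genes called higher, and 0 fell. The median log2 difference was 2.45 with all 24 fitted differences above 0, against 50.9% of all genes. In 22 of 24 the CPM was higher in MPP in both pairs, against 23.1% of all genes, and in 15 both MPP libraries lay above both HSC libraries, against 7.39%. Summed CPM was 3781 and 5659 in HSC and 6612 and 30503 in MPP, 1.75-fold and 5.39-fold up within pairs. MPP replicate 2 held by far most of it. Blvrb passed with any of the 4 libraries left out, while Klf1 missed the threshold without HSC replicate 2 and without MPP replicate 2, and neither passed without the heart term or with the 12-library block.

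Blvrb (ENSMUSG00000040466, chromosome 7, 27447978 to 27466144), an erythrocyte reductase of biliverdin and flavins, had 35.1 and 69.9 CPM in HSC and 150 and 758 in MPP (log2 2.86, SE 0.34, adjusted p = 1.65e-05, edgeR), the smallest adjusted p of the comparison. The anion exchanger Slc4a1 stood at 5.91 and 0.997 CPM in HSC and 81.7 and 474 in MPP (log2 5.42, SE 1.56, adjusted p = 0.78), and the transferrin receptor Tfrc at 178 and 91.6 in HSC and 337 and 985 in MPP (log2 2.18, SE 0.62, adjusted p = 0.606). For these 2 transport proteins both MPP libraries lay above both HSC libraries. The beta-globin gene Hbb-bs was at 46.0 and 7.31 CPM in HSC and 353 and 1015 in MPP (log2 4.99, SE 1.44, adjusted p = 0.785). Hbb-bt, Hba-a1 and Hba-a2 lay between log2 4.30 and 5.04 and did not pass, and since globin genes have near-identical copies, how reads were split among them is uncertain. The erythropoietin receptor Epor was at 4.25 and 15.2 CPM in HSC and 8.72 and 43.2 in MPP (log2 1.37, SE 0.52, adjusted p = 0.717).

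**Figure D3:**
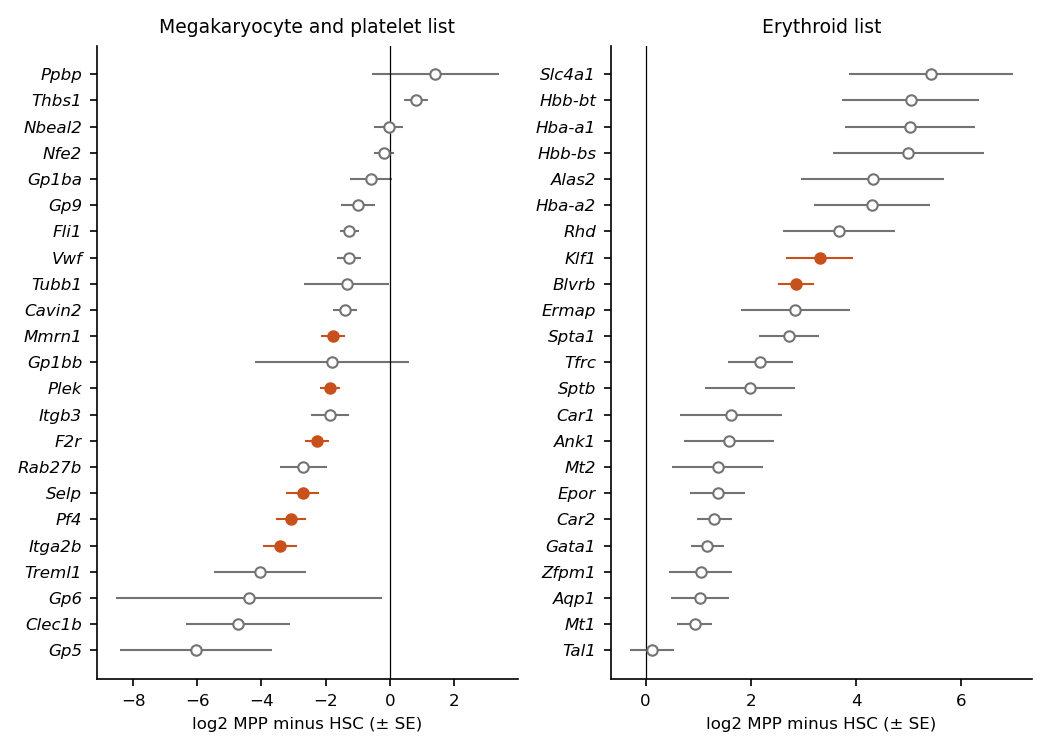
Fitted log2 difference (MPP minus HSC, bars ± SE) of 23 of the 24 tested members of the megakaryocyte and platelet list and 23 of the 24 of the erythroid list in the double mutant, filled where adjusted p is under 0.05. The erythroid members lie above 0 and most platelet members below it, and the members farthest from 0 have the widest errors.

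Among erythroid genes outside the list, Hemgn (ENSMUSG00000028332, chromosome 4, 46393989 to 46413506), a nuclear protein of erythroid precursors, had 30.8 and 68.2 CPM in HSC and 107 and 830 in MPP (log2 2.80, SE 0.38, adjusted p = 0.000417, edgeR). Trim10 (ENSMUSG00000073400, chromosome 17, 36869574 to 36877833), a RING finger protein of terminal red cell maturation, had 3.07 and 3.88 CPM in HSC and 18.6 and 141 in MPP (log2 3.76, SE 0.66, adjusted p = 0.00668). The HSC libraries of Trim10 were level, and MPP stood 6.05-fold and 36.3-fold above them. Smim1, which carries the Vel blood group, had 7.80 and 10.6 CPM in HSC and 25.7 and 120 in MPP (log2 2.66, SE 0.46, adjusted p = 0.00291). Redrum, a noncoding RNA of erythroid cells, had 1.24 and 0.775 CPM in HSC and 17.4 and 67.9 in MPP (log2 4.98, SE 1.02, adjusted p = 0.0344). E2f2, a cell cycle factor used in red cell maturation, had 10.3 CPM in both HSC libraries and 32.4 and 132 in MPP (log2 2.58, SE 0.44, adjusted p = 0.00447). In each of these genes no HSC library reached an MPP library.

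Enzymes of haem synthesis were looked at in pathway order, a list of 7 chosen after their values were seen, with 2 called and all 7 higher in MPP in both pairs (median log2 1.96), against 0.127% of all genes called higher and 23.1% higher in both pairs. Alas2, the erythroid form of the first enzyme, had 7.74 and 4.43 CPM in HSC and 56.6 and 211 in MPP but did not pass (log2 4.32, SE 1.36, adjusted p = 0.844, edgeR). Alad, the second enzyme, rose from 74.0 and 124 CPM in HSC to 153 and 789 in MPP (log2 1.96, SE 0.34, adjusted p = 0.00346). Uros and Urod, which act further on, did not pass (log2 1.98 and 1.00, adjusted p = 0.364 and 0.542). Cpox, which makes protoporphyrinogen, rose from 50.9 and 32.5 CPM to 111 and 322 (log2 2.24, SE 0.44, adjusted p = 0.0355). Ppox and the iron-inserting Fech did not pass (log2 0.87 and 1.21, adjusted p = 0.677 and 0.332). Mitochondrial carriers tied to the same path also rose, Slc25a37 (mitoferrin 1, which brings in iron) from 33.9 and 68.3 CPM to 107 and 353 (log2 2.10, SE 0.34, adjusted p = 0.00154) and Tmem14c (porphyrin transport) from 72.1 and 119 to 133 and 612 (log2 1.73, SE 0.33, adjusted p = 0.00664).

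**Figure D4:**
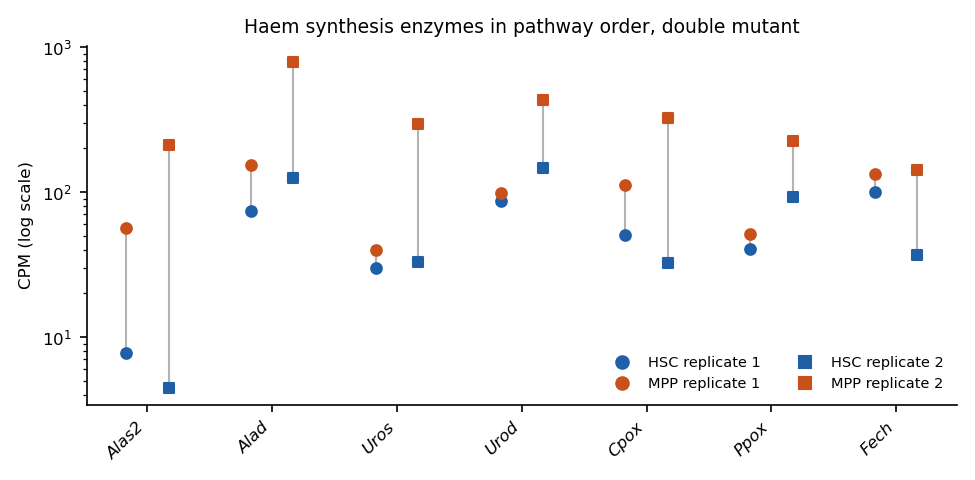
CPM (log scale) of 7 haem synthesis enzymes in pathway order, circles for replicate 1 and squares for replicate 2, blue for HSC and orange for MPP. MPP lies above HSC in both pairs for all 7, with a wider gap in replicate 2.

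Promoters of 3 risen genes that hold AGATAA, or TTATCT for the other strand, are printed from RefSeq (GRCm38.p6) to set beside those of the platelet genes, with the same capitals and orientation: Hemgn on the minus strand at chr4:46404134-46404433, Cpox on the plus strand at chr16:58669958-58670257 and Trim10 on the plus strand at chr17:36869324-36869623.
Hemgn: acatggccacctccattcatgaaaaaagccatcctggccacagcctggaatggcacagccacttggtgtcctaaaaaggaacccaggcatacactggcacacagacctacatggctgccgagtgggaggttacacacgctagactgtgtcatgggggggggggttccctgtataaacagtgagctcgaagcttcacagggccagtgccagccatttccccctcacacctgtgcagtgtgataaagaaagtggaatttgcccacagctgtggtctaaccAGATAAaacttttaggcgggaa
Cpox: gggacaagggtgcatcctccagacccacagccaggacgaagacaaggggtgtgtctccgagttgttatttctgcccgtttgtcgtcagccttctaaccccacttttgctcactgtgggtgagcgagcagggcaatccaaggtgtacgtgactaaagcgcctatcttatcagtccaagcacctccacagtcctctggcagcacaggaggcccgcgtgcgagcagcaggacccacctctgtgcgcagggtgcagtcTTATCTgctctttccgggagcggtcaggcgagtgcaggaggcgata
Trim10: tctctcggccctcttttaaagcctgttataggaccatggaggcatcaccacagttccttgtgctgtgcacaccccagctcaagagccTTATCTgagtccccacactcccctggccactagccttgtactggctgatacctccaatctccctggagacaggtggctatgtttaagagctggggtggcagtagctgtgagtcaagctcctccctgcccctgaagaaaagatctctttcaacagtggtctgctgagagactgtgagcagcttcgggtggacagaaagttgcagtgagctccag
Counted from the RefSeq start, which for Hemgn lies well inside the coordinates of the deposited tables, the first match lies 28 bases past it in Hemgn, 4 past it in Cpox and 163 before it in Trim10. Over both strands, AGATAA was found in 7 of 30 windows (23.3%) of the 20 risen genes that had a RefSeq entry, in 2 of 19 windows (10.5%) of 15 fallen genes and in 11.2% of 32851 windows of all genes. CCNCNCCC, the letters known for KLF factors, was in 76.7% of windows of risen genes, 52.6% of those of fallen genes and 49.5% of all windows. The 2 motifs share no letters that would force an overlap, several windows belong to 1 gene, and the shares describe letters in a window, not binding.

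Genes of other functions were called as well. Cd24a (ENSMUSG00000047139, chromosome 10, 43579169 to 43584262), a surface sialoglycoprotein of blood precursors with intronless copies elsewhere in the genome that could share its reads, had 80.1 and 136 CPM in HSC and 271 and 1256 in MPP (log2 2.55, SE 0.33, adjusted p = 6.04e-05, edgeR). The tetraspanin Cd82 rose from 60.2 and 80.4 CPM to 119 and 471 (log2 1.74, SE 0.36, adjusted p = 0.0249). Acp5, an acid phosphatase best known from osteoclasts, had 6.03 and 6.09 CPM in HSC and 30.3 and 227 in MPP (log2 4.06, SE 0.74, adjusted p = 0.0449), and Gfap, an intermediate filament best known from astrocytes, had 1.12 and 0.664 in HSC and 20.5 and 24.8 in MPP (log2 4.50, SE 1.02, adjusted p = 0.0449). The 2 MPP libraries of Gfap lay close to each other. The unnamed transcript 6030468B19Rik had the largest fitted rise of the genes called, from 0.709 and 0.111 CPM to 9.86 and 54.9 (log2 5.50, SE 0.99, adjusted p = 0.00447). Fam117a (2.21), Nxpe2 (2.31), Ptdss2 (2.27), a phosphatidylserine synthase, and Minpp1 (1.83), an inositol phosphate phosphatase, rose too.

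Among proliferation genes, 2 listed members rose. Rrm2, the regulated subunit of ribonucleotide reductase, had 273 and 541 CPM in HSC and 623 and 2974 in MPP (log2 1.89, SE 0.33, adjusted p = 0.00291, edgeR). It was the only one called of 30 DNA replication and S phase genes, whose median was 0.57 with 29 fitted differences above 0. Of all genes, 0.127% were called higher and 50.9% had a difference above 0. In 18 of the 30 the CPM was higher in MPP in both pairs, against 23.1% of all genes. In 2 (6.67%) both MPP libraries lay above both HSC libraries, against 7.39% of all genes. The summed CPM of the list rose 1.12-fold in the first pair and 2.10-fold in the second. Birc5 (survivin), which guides chromosome segregation, had 44.9 and 99.5 CPM in HSC and 77.6 and 398 in MPP (log2 1.49, SE 0.33, adjusted p = 0.0403), the only one called of 26 mitosis genes (median 0.47, 23 above 0, 12 higher in both pairs against 23.1% of all genes). In 1 of the 26 (3.85%) both MPP libraries lay above both HSC libraries, and the summed CPM rose 1.05-fold and 1.78-fold within pairs. Mki67, at 67.3 and 210 CPM in HSC and 144 and 483 in MPP, did not pass (log2 1.22, SE 0.30, adjusted p = 0.0916). Pimreg, a mitotic regulator not on that list, fell from 22.9 and 59.8 CPM to 3.6 and 10.3 (log2 -2.55, SE 0.43, adjusted p = 0.00228), and Gas2l3, a linker of actin and microtubules in dividing cells, from 156 and 274 to 29.3 and 84.7 (log2 -2.02, SE 0.33, adjusted p = 0.00154).

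Of 34 stem cell identity genes, all tested, 1 fell (Mmrn1) and 0 rose, against 0.0867% of all genes called lower. The median was -0.62 and 25 differences were below 0, while 50.9% of all genes were above 0. In 19 of the 34 the CPM was lower in MPP in both pairs, against 28.9% of all genes, and in 11 both MPP libraries lay below both HSC libraries, against 11.1%. Nupr1, a stress-response chromatin protein, stood at 63.1 and 177 CPM in HSC and 13.2 and 27 in MPP (log2 -2.41, SE 0.69, adjusted p = 0.454). Meis1, a homeobox factor of HSC, stood at 396 and 1183 CPM in HSC and 241 and 486 in MPP (log2 -0.93, SE 0.33, adjusted p = 0.606). Hlf, at 147 and 427 in HSC and 180 and 352 in MPP (log2 0.06), and Procr (log2 0.03) showed differences close to 0. Outside the list, the tetraspanin Cd9 fell from 127 and 315 CPM to 38.5 and 87.0 (log2 -1.72, SE 0.31, adjusted p = 0.00417). The test also called falls of the anion transporter Slco4a1 (log2 -2.25), the mucin Muc13 (-1.76), Tmem40 (-1.64), the extracellular matrix protein Itih5 (-1.45) and the translation inhibitor Pdcd4 (-1.41).

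Lymphoid priming genes gave no call. Of 22 listed, 21 were tested and 0 passed, with a median log2 difference of 0.74 and 15 higher in MPP in both pairs, against 23.1% of all genes. In 8 (38.1%) both MPP libraries lay above both HSC libraries, against 7.39% of all genes. In 1 (4.76%) both lay below, against 11.1%. Blnk, a B cell adaptor, stood at 3.96 and 2.88 CPM in HSC and 9.29 and 28.7 in MPP (log2 2.15, SE 0.53, adjusted p = 0.0903, edgeR). Dntt, the DNA polymerase of early lymphoid cells, stood at 12.5 and 0.775 in HSC and 32.6 and 72.1 in MPP (log2 2.50, SE 1.38, adjusted p = 1). Mef2c stood on the other side, at 286 and 811 CPM in HSC and 176 and 247 in MPP (log2 -1.13, SE 0.30, adjusted p = 0.151).

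Other programmes gave 1 call among them. Granulocyte and monocyte genes had a median of 0.08 over 20 tested, with 0 called. Their members split, Elane at 488 and 359 CPM in HSC and 1003 and 2288 in MPP (log2 1.72, SE 0.57, adjusted p = 0.77), and Ltf, a late granule protein, at 749 and 330 in HSC and 139 and 306 in MPP (log2 -1.68, SE 0.96). The interferon response list had 1 rise of 30, the exonuclease Isg20 from 33.9 and 74.0 CPM to 71.0 and 328 (log2 1.71, SE 0.36, adjusted p = 0.0199, edgeR), and a median of -0.02. Of all genes, 0.127% were called higher. The STAT5 target list, genes downstream of JAK2 (15 tested, median -0.16), and the PRC2 list (12 tested, median 0.06) had 0 calls. The PRC2 catalytic subunit Ezh2 stood at 61.8 and 119 CPM in HSC and 57.2 and 156 in MPP (log2 0.21).

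Transcripts of other cell types were also present. Mast cell proteases were highest in MPP replicate 2, the library with the highest erythroid sum: Tpsb2 stood at 124 CPM there and at 0.111 to 9.10 in the other 3, and Cma1 at 86.5 and at 0 to 3.03. Over the mast cell and basophil list (12 tested, 0 called) the summed CPM was 476 and 1197 in HSC and 372 and 1037 in MPP. Of its members, 4 (33.3%) were higher and 3 (25%) lower in MPP in both pairs, against 23.1% and 28.9% of all genes. T, B and NK cell genes summed to 137 and 190 CPM in HSC and 189 and 386 in MPP, higher in both pairs (17 tested, 0 called), with Cd8a at 0.0591 CPM in HSC replicate 1 and 0 in the other 3. By member, 5 (29.4%) were higher and 3 (17.6%) lower in both pairs, with the share higher near that of all genes. Macrophage and dendritic cell genes summed to 1114 and 1887 in HSC and 1428 and 2265 in MPP, higher in both pairs (15 tested, 0 called). The untested member Marco, a scavenger receptor, was at 0 in all 4 libraries. Of the members, 8 (53.3%) were higher and 2 (13.3%) lower in both pairs, against the same 23.1% and 28.9%. The part of these transcripts in the erythroid and platelet differences was not tested.

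The same contrast in Vav control mice, fitted apart because the exons behind a gene are listed differently there, called 185 of 15818 genes (1.17%), 81 (0.512%) higher and 104 (0.657%) lower in MPP. Of the 104 lower in Vav control MPP, 89 (85.6%) had a double mutant difference below 0 (median -0.98), and 4, Cd9, F2r and Mmrn1 among them, fell in both. Of the 81 higher, 64 (79.0%) had a double mutant difference above 0 (median 0.38), and 0 were called there. Of all genes, 50.9% had a double mutant difference above 0. Read the other way, 16 of the 17 genes that fell in the double mutant were below 0 in Vav control (median -0.70), the exception being Plek at 0.87 (adjusted p = 0.222, edgeR). Of the 25 that rose, 16 were above 0 there (median 0.10) and 0 were called. Over all genes tested in both cohorts the Vav control median was -0.02. By list, the Vav control medians were -1.15 for platelet genes (1 higher, 8 lower), 0.66 for erythroid genes (0 called), -0.78 for stem cell genes (10 lower), 1.55 for lymphoid priming (6 higher) and 1.30 for granulocyte and monocyte genes, with -0.34 for S phase and -0.35 for mitosis. Slamf1 (log2 -3.90, SE 0.46, adjusted p = 0.000461), Cd48 (1.69, SE 0.36, adjusted p = 0.0339), Flt3 (3.33, SE 0.38, adjusted p = 0.000419) and Cd34 (1.63, SE 0.24, adjusted p = 0.00312), none of which passed in the double mutant fit reported here, passed in Vav control. Differences between the 2 cohorts were not tested.

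**Figure D5:**
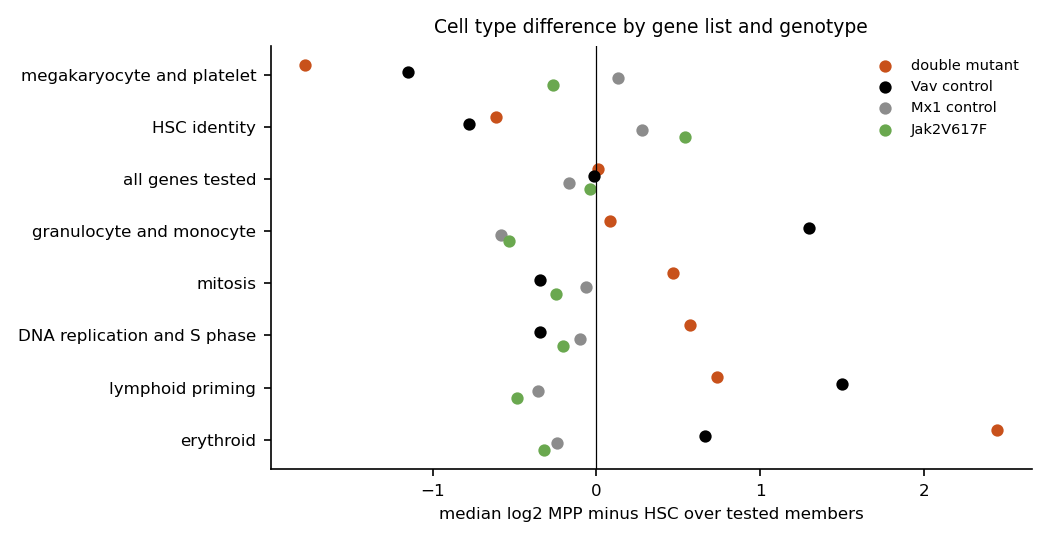
Median fitted log2 difference (MPP minus HSC) of 7 gene lists and of all genes tested, each point 1 genotype. The double mutant lies farthest right for erythroid genes (2.45) and farthest left for platelet genes (-1.78), while the Mx1 control and Jak2V617F points come from libraries that go against their HSC label; Vav control medians are over members also tested in the Mx1 cohort.

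Within the Mx1 cohort, MPP against HSC called 0 of 19616 genes in control mice (1113 at an unadjusted p under 0.05, edgeR) and 0 in Jak2V617F mice (284). Platelet medians were 0.13 and -0.26 and erythroid medians -0.24 and -0.32. The difference between the double mutant contrast and that of control passed for 3 genes (0.0153%), Blvrb and Cd24a above (0.0102%) and Csgalnact1 below (0.0051%), with 1417 at an unadjusted p under 0.05. Blvrb was at 95.5 and 151 CPM in control HSC and 97.2 and 46.8 in control MPP, and its double mutant contrast exceeded that of control by log2 3.06 (SE 0.50, adjusted p = 0.00444). Cd24a was at 361 and 349 CPM in control HSC and 264 and 112 in control MPP (difference 2.99, SE 0.48, adjusted p = 0.00444). Csgalnact1, an enzyme that starts chondroitin sulphate chains, was at 5.29 and 7.15 CPM in control HSC and 19.8 and 21.5 in control MPP, against 67.0 and 161 in HSC and 20.2 and 52.6 in MPP of the double mutant (difference -3.74, SE 0.63, adjusted p = 0.00613). Against Jak2V617F, 3 genes passed (0.0153%, 733 at an unadjusted p under 0.05), among them Blvrb (3.14, SE 0.49, adjusted p = 0.00397) and Cd24a (2.78, SE 0.48, adjusted p = 0.0123). Blvrb was at 332 and 136 CPM in Jak2V617F HSC and 97.6 and 132 in Jak2V617F MPP. The marker levels of the libraries labelled HSC in these groups, given above, move with these differences, and their part was not tested. Both counts became 0 without the heart term. With the replicate block within genotype, the difference from control passed for 2 genes and that from Jak2V617F for 0, and 0 of the genes named here were among them.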

How the data were processed

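RNA-seq of sorted double mutant HSC and MPP was read from 1 deposited table per library. The authors' deposited Count column holds counts per gene, their deposited CPM column the same counts scaled by depth, and their deposited RPKM column those values per kilobase of gene, per the file headers. The CPM column was checked against the counts, the RPKM column was not used in a test. Per the submitters' processing notes, the build was mm10 and the tools were Partek 6.6, HTSeq 0.8.0, featureCounts 1.4.5, Subread and STAR 2.0.4, with no roles given. Libraries were made with a SMARTer Ultra Low kit, per the labels.

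Counts of the 12 Mx1 libraries were fitted in edgeR 4.0.16 (R 4.3.3) with TMM, filterByExpr (minimum count 10, minimum total 15), 6 groups and a term for libraries above 4% heart counts, leaving 5 residual degrees of freedom and 19616 genes. Robust quasi-likelihood F tests were adjusted by Benjamini-Hochberg at 0.05. SE is the log2 difference over the square root of F. The 12 Vav libraries were fitted apart, by group. The alternatives were DESeq2 1.42.0 size factors and Wald test, limma 3.58.1 voom, other filters, other forms of the heart term, replicate blocks and leaving out each library. The DESeq2 and voom fits of the 4 double mutant libraries, were chosen after seeing the data. Counts were also simulated from the heart-term fit itself, with known log2 changes of 2 and 3. The edgeR fit with the term recovered 60% and 87% of the changed genes. Of its 172 calls, 25 (14.5%) were false, above the 5% set. Without the term it called nothing. As the term was built into the simulated counts, this cannot decide between the 2 models.

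The genes named are the sort markers, Gata1, Jarid2 and Jak2, the 12 largest rises and falls called with logCPM of at least 2, no overlap and both pairs in 1 direction, leaving out predicted genes, clone names, small RNA genes, unnamed loci and heart genes, up to 4 called members of each list, and the genes called between genotypes. Others were chosen after their values were seen. A few genes that the rule or the lists name are not reported here or drawn, and the differences flagged between genotypes leave out such a gene. The members and lists were chosen with earlier results of these data known. Deviations of HSC and MPP replicates from their group means had a correlation of 0.523 over 19616 genes between same-numbered libraries. P-values measure the spread between 2 pools per group. The 8 samples made by ChIP were not analysed here.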

Additional observations from a re-analysis of the deposited data

Results flagged for a closer look

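Genes whose MPP to HSC contrast differed between genotypes by a test of the difference itself were few. Against Mx1 control, Blvrb differed by a log2 of 3.06, Cd24a by 2.99 and Csgalnact1 by -3.74. Against Jak2V617F, Blvrb differed by 3.14 and Cd24a by 2.78. The double mutant side of each difference had libraries that carried stem cell markers, while the HSC libraries of the other genotypes had Slamf1 at 12.7 CPM or less, and the part of this in the differences was not tested. With the replicate block within genotype 0 of these differences passed.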

How the results depend on the processing

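The counts of genes called changed with the model. Of 27 named genes called in the double mutant, 0 reversed in 16 alternative fits. All of them had moved the same way in both pairs when they were called. The alternative fits reuse the same libraries, so reversals were unlikely from the outset and their absence is not a separate check. Without the heart term, and so with no replicate block, the double mutant contrast and both differences between genotypes called 0. With the replicate block within genotype the double mutant contrast called 1, the difference from control 2 and that from Jak2V617F 0, with 0 shared with the calls reported, and with the replicate block in the 4 double mutant libraries alone the contrast called 91 by edgeR, 134 by DESeq2 and 122 by voom. These counts, for the double mutant contrast and the differences from control and Jak2V617F in turn, were 139, 80 and 71 with no filter on low counts, and 142, 91 and 46 by the DESeq2 Wald test. By voom the differences called 17 and 13. The difference from Jak2V617F called 1 with a minimum count of 20 and 1 with a continuous heart share. Leaving out a library gave 65 to 327 genes for the contrast, 42 to 482 for the difference from control and 32 to 244 for that from Jak2V617F, so that every library left out raised these counts; a group's lone remaining library was taken to vary as other groups do. The contrast called 327 without HSC replicate 1, 92 without HSC replicate 2, 187 without MPP replicate 1 and 65 without MPP replicate 2. Vav control called 451 with no filter, 474 by DESeq2, 167 with a replicate block and 61 to 102 with a library left out. The cause was not tested. The heart RNA and 2 pools per group limit what small differences can be seen.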
